A study of Homo sapiens with 12 samples.

Results

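Refeeding of starved cells was examined in RPE-1, an established, telomerase-immortalised human line from retinal pigment epithelium, by sequencing of poly-A RNA. The refed group (3 libraries) had been deprived of fetal calf serum (FCS) and glucose for 24 h and was then stimulated for 4 h with 10% FCS and 5 g/l glucose in the presence of the solvent DMSO. The starved group (3 libraries) had been deprived for 24 h only, and its labels do not say whether DMSO was added. Both groups had been grown in RPMI medium. Of 43481 genes with expected counts, 15263 had enough counts to be tested, and all of them were compared. Cells refed with dimethyl amiloride (DMA) or C646 (6 libraries) entered the count filter, the scaling and the estimate of spread, but not the comparison. They also entered the mean level by which the steepest changes were filtered. The study's title places this response in pH-dependent progression through the cell cycle. Serum, glucose, DMSO and 4 h of additional culture were given together, so their parts cannot be told apart. Library numbers 1 to 3 come from the labels, which do not call them separate cultures, so p-values measure the spread between these samples, which may be technical.

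Serum carries growth factors, lipids and amino acids, and glucose feeds glycolysis and the sugar chains added to proteins in the endoplasmic reticulum (ER). Cells that lack these slow translation through phosphorylation of eIF2 while the factor ATF4 is still made, raise ER chaperones through XBP1 and ATF6, and release FOXO and lysosomal programmes that growth factor signalling holds back. On refeeding, growth factor receptors switch on ERK, AKT and mTORC1, which are known for driving ribosome assembly, protein synthesis and entry into the cell cycle.

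The refed libraries held 23472623 to 28968510 expected counts (estimated reads) and the starved libraries 14910516 to 23950322. Levels below are counts per 1000000 (CPM) after scaling by the trimmed mean of M-values (TMM). They are not corrected for transcript length, so they are compared between libraries and not between genes. The marker levels in this paragraph are CPM without TMM scaling. The first principal component held 48% of the variance and separated the groups. Mitochondrially encoded transcripts took 2.48% to 3.24% of refed and 2.39% to 4.14% of starved counts, highest in the shallowest library, starved library 3. Markers of pigmented retinal epithelium were scarce in both groups. They summed to 4.31 to 5.55 CPM in refed and 5.09 to 7.35 CPM in starved libraries, and TTR was at 0 in every library. The 12 genes listed as epithelial markers of RPE-1 summed to 6118 to 6317 CPM in refed and 6950 to 7806 CPM in starved libraries, most of it the intermediate filament gene VIM, at 4632 to 5064 CPM in refed and 5452 to 6687 CPM in starved libraries. The keratin KRT8 was at 316 to 342 CPM in refed and 209 to 319 CPM in starved libraries, while the cadherin CDH1 and the keratin KRT19 stayed under 1 CPM in every library. Blood and immune markers stayed between 0.248 and 1.10 CPM in refed and between 0.395 and 0.718 CPM in starved libraries. Neuron and glia markers summed to 40 to 49 CPM in refed and 93.3 to 97.1 CPM in starved libraries, most of it the synaptic vesicle gene SYT1, whose log2 change was -1.28 ± 0.17 (± the standard error, here and after every log2 change). What part any other cell type has in the results was not tested.

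Refeeding changed 3704 of 15263 genes (24.3%) at an adjusted p under 0.05 in edgeR's quasi-likelihood test. Of these, 1921 (12.6% of the genes tested) were higher and 1783 (11.7%) were lower in refed cells. At least 2-fold changes were found for 511 higher and 666 lower genes, and at least 8-fold changes for 52 higher and 32 lower genes. The median change was 0.70 on the log2 scale among higher genes and -0.83 among lower genes. Genes that were lower had longer spans on the genome, with a median of 40.7 kb, against 27.4 kb for genes that were higher and 29.9 kb for all genes tested. These changes are relative to the total of poly-A RNA. Spike-in controls took 0.527% to 1.06% of refed and 0.872% to 1.28% of starved counts, and when they set the scale the median over all genes moved up by 0.60 on the log2 scale. With that scaling 3227 genes (21.1%) were higher and 189 (1.24%) were lower. Directions below are relative to the median of all genes, and a list median that is printed and changes sign under spike-in scaling is given with both values. Of 52 list counts of 1 or 2 genes, 34 moved by over 1.5 times when 1 library was left out, so such counts are given as a description.

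Genes below a mean log2 CPM of 2 over all 12 libraries and genes with overlapping groups were set aside. Most of these libraries were refed, so genes high in refed cells passed more easily. The 10 with the steepest rise were KRTAP2-3, METTL7B, ANGPTL4, ESM1, AP000892.3, NEB, IL7R, ID3, IFITM10 and FAM111B. ANGPTL4, a secreted inhibitor of lipoprotein lipase and a PPAR target, measured 34.4, 20.2 and 65.7 CPM in refed libraries 1 to 3, against 1.63, 1.17 and 3.92 CPM in starved libraries 1 to 3. Its lowest refed library stood above the highest starved library, which held for 20.5% of all tested genes, while 19.5% lay below without overlap. The putative methyltransferase METTL7B measured 6.78, 7.67 and 6.37 CPM in refed and 0.0880, 0.502 and 0.356 CPM in starved libraries, a log2 change of 4.44 ± 0.37 (adjusted p = 1.1e-05). The interleukin 7 receptor gene IL7R reached 22.5, 14.6 and 6.93 CPM in refed and 3.26, 0.754 and 1.28 CPM in starved libraries, and refed library 1 was the highest. FAM111B, a putative serine protease, had a log2 change of 2.75 ± 0.50 with every library and of 1.74 without refed library 1. The call of ESM1, an endothelial proteoglycan, was lost without refed library 1 or starved library 2 (adjusted p = 0.073 to 0.082), and that of IFITM10 without refed library 3, starved library 1 or starved library 2 (adjusted p = 0.067 to 0.071). KRTAP2-3, AP000892.3 and IFITM10 share over 20% of their sequence or exons with other genes, and such genes are called uncertain here.

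The 10 with the steepest fall were DDIT3, HERPUD1, CHAC1, LURAP1L, DDIT4, DNAJB9, RAB39B, KLHL24, CTH and JMY. DDIT3 encodes the stress factor CHOP, and HERPUD1 an ER membrane protein of the degradation machinery. LURAP1L measured 4.50, 5.96 and 5.35 CPM in refed and 71.98, 53.9 and 58.3 CPM in starved libraries, a log2 change of -3.54 ± 0.26. The actin nucleator and p53 cofactor JMY measured 7.77, 9.29 and 7.22 CPM in refed and 73.2, 69.2 and 52.3 CPM in starved libraries. RAB39B, a small GTPase of vesicle traffic, measured 0.703, 0.792 and 2.38 CPM in refed and 16.99, 12.3 and 9.05 CPM in starved libraries. In each of these the groups lay several fold apart, with no overlap.

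**Figure D1:**
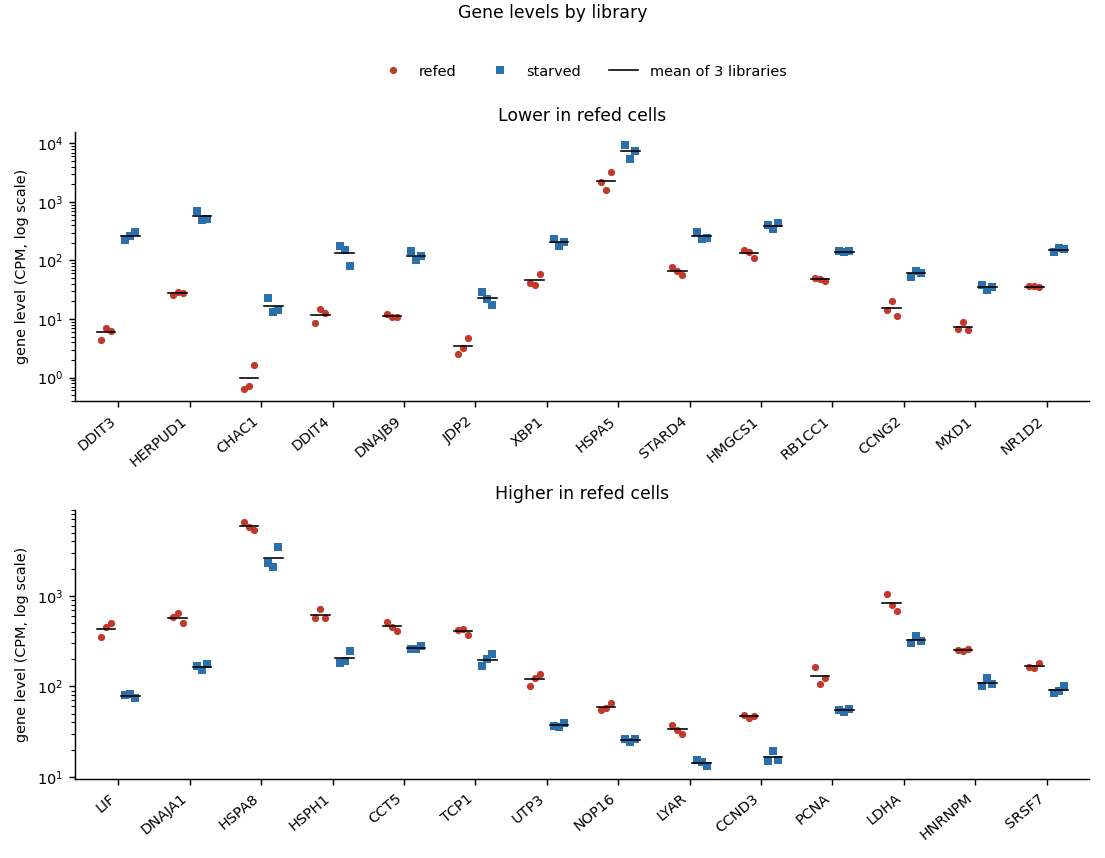
CPM of 28 genes on a log scale, with 3 refed libraries (circles, left) and 3 starved libraries (squares, right) per gene and their mean as a bar. The 14 genes in the upper panel were called lower and the 14 in the lower panel higher in refed cells, with no overlap between groups.

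Genes of the ATF4 stress response were mostly lower in refed cells, and which eIF2 kinase acts upstream was not tested. ATF4 is translated when eIF2 is phosphorylated and switches on DDIT3, TRIB3, amino acid transporters and synthesis enzymes. Of 17 stress response factors and eIF2 kinases tested, 11 were lower and 1 was higher, with a median log2 change of -1.26 against 0.003 over all genes. ATF4 itself measured 204, 245 and 307 CPM in refed and 919, 868 and 994 CPM in starved libraries, a log2 change of -1.88 ± 0.21 (adjusted p = 8.8e-05). Its partner CEBPG measured 29.1, 28.8 and 36.1 CPM in refed and 135, 102 and 108 CPM in starved libraries. The bZIP repressor JDP2 measured 2.53, 3.17 and 4.72 CPM in refed and 28.6, 22.1 and 17.2 CPM in starved libraries. In all 3 of these genes every refed library lay below every starved library. TRIB3, a pseudokinase that restrains ATF4 and AKT, changed by -2.93 ± 0.50, and PPP1R15A, which recruits the phosphatase for eIF2, by -1.87 ± 0.18. ATF3 (-1.51 ± 0.34), CEBPB (-1.27 ± 0.24) and the ER-located eIF2 kinase EIF2AK3 (-1.17 ± 0.22) were also lower on the log2 scale. ATF5 was the only factor called higher, at 34.5, 40.6 and 60.8 CPM in refed and 25.8, 27.2 and 25.2 CPM in starved libraries, and its log2 change of 0.80 ± 0.18 was 0.53 without refed library 3. ATF4, ATF5, DDIT3, DDIT4, MTHFD2, ASNS and SLC7A6 are uncertain by shared sequence or overlap.

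Other ATF4 targets moved with them, with 8 of 11 lower, none higher and a median log2 change of -1.66. CHAC1, which degrades glutathione, measured 0.633, 0.708 and 1.66 CPM in refed and 23.02, 13.4 and 14.3 CPM in starved libraries, a log2 change of -4.08 ± 0.44 (adjusted p = 5.7e-05). The starved libraries were all above 13 CPM and the refed libraries all below 2 CPM. The collagen receptor DDR2 (-2.05 ± 0.23), the alanine transaminase GPT2 (-1.96 ± 0.22), the secreted glycoprotein STC2 (-1.14 ± 0.21) and the leucine sensor SESN2 (-2.14 ± 0.30) were lower on the same scale. Of 14 enzymes of serine, one-carbon and asparagine synthesis, 8 were lower and 1 was higher, with a median of -0.57 that became 0.07 under spike-in scaling. CTH, which makes cysteine from cystathionine, measured 1.72, 2.79 and 5.06 CPM in refed and 37.8, 23.3 and 24.2 CPM in starved libraries. MTHFD2 (-2.09 ± 0.21), a mitochondrial folate enzyme, SHMT2 (-0.90 ± 0.12) and PSAT1 (-0.80 ± 0.18, and -0.53 without starved library 1) were lower. The exception was ALDH18A1, the first enzyme of proline synthesis, at 0.79 ± 0.12. The asparagine synthetase ASNS changed by -0.50 ± 0.15, and by -0.33 without starved library 1. It lost its call without refed library 2, refed library 3, starved library 1 or starved library 2 (adjusted p = 0.051 to 0.15), and under spike-in scaling its change was 0.08.

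Transporters of amino acids were lower in 9 of 17 cases and higher in 2, with a median log2 change of -0.68. SLC3A2, the shared heavy chain of several exchangers, measured 154, 191 and 256 CPM in refed and 746, 726 and 605 CPM in starved libraries. The glycine carrier SLC6A9 measured 14.3, 16 and 25.5 CPM in refed and 119, 76.7 and 45.6 CPM in starved libraries. SLC7A1, which carries arginine and lysine, changed by -1.58 ± 0.19, and the serine and alanine carrier SLC1A4 by -1.73 ± 0.33. The 2 that rose were SLC36A1 (1.33 ± 0.19), which exports amino acids from lysosomes, and SLC7A6 (1.19 ± 0.24), an exchanger of basic amino acids. SLC7A5 (-0.91 ± 0.23) and the cystine importer SLC7A11 (-1.17 ± 0.37) passed the test with every library. Their calls were lost without refed library 1, refed library 2 or starved library 1 (adjusted p = 0.058 to 0.064) for SLC7A5 and without refed library 1, refed library 2, starved library 1 or starved library 3 (adjusted p = 0.069 to 0.14) for SLC7A11. Among 20 cytosolic aminoacyl-tRNA synthetases, which load tRNAs, 11 were lower and 3 higher, with a median of -0.41 that became 0.22 under spike-in scaling. CARS for cysteine (-1.36 ± 0.17), AARS for alanine (-1.17 ± 0.20) and GARS for glycine (-0.99 ± 0.20) were lower, while RARS for arginine (0.89 ± 0.13) and HARS for histidine (0.51 ± 0.10) were higher. Of 17 mitochondrial synthetases only 1 was lower and 2 were higher, MARS2 for methionine among them (1.28 ± 0.16).

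The promoters of these genes were read for the C/EBP-ATF response element (CARE), the site bound by ATF4 with C/EBP proteins. Promoter windows came from RefSeq (GRCh38.p14), each with 250 bases before and 50 bases from the start of a transcript on, and 10801 of 15263 tested genes had at least 1 window, which left 10794 when genes that share a RefSeq record were counted once. The letters TGATGNAA on either strand occurred in windows of 4.74% of the genes called lower, 2.00% of those called higher and 2.86% of all tested genes with a window. Among stress response factors 4 of 14 genes held it, all called lower except PPP1R15B, which was not called. Among amino acid transporters 6 of 16 held it, all called lower except SLC1A3 and SLC1A5, which were not called. Shown are the stretches around it in 3 genes that fell, each 5′ to 3′ along the gene with the match in capitals. The genes were chosen for the match after their values were seen.
CHAC1 (chr15:40953238-40953293, plus strand): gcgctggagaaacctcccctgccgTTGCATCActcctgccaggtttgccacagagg
ATF3 (chr1:212565192-212565247, plus strand): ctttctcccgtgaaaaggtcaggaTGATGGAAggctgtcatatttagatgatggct
HERPUD1 (chr16:56931942-56931997, plus strand): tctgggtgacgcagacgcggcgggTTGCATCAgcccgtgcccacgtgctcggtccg
In CHAC1 and HERPUD1 the match is on the opposite strand, and it begins 209, 191 and 176 bases before the start in CHAC1, ATF3 and HERPUD1. A match of letters is no evidence that a factor was bound.

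ER folding and degradation genes were lower in refed cells as well. Of 21 ER chaperones and oxidoreductases, 12 were lower and none higher, with a median log2 change of -0.51 that became 0.07 under spike-in scaling. HSPA5 encodes BiP, the central chaperone of the ER. It measured 2190.0, 1591 and 3199.6 CPM in refed and 9599.8, 5369 and 7347 CPM in starved libraries, a log2 change of -1.68 ± 0.35 (adjusted p = 0.0047). The co-chaperone DNAJB9 measured 12.1, 10.9 and 10.8 CPM in refed and 145, 101 and 117 CPM in starved libraries, a log2 change of -3.43 ± 0.24. Neither gene overlapped between groups, and for HSPA5 refed library 3 was nearest to the starved cells. DNAJC3, which inhibits eIF2 kinases, changed by -1.74 ± 0.21, and HYOU1, a nucleotide exchange factor, by -1.42 ± 0.20. The co-chaperone SDF2L1 (-1.21 ± 0.36) lost its call without refed library 1, refed library 2, starved library 1 or starved library 2 (adjusted p = 0.051 to 0.11). In ER-associated degradation and translocation, 10 of 23 genes were lower and 2 higher, with a median of -0.34 that became 0.26 under spike-in scaling. Without starved library 1 only 5 were lower, and without refed library 2 only 6. HERPUD1 measured 26.04, 29.2 and 28.05 CPM in refed and 691, 500.4 and 514 CPM in starved libraries, a log2 change of -4.36 ± 0.16 (adjusted p = 4.2e-09). The ubiquitin ligase SYVN1 and its partner SEL1L changed by -1.91 ± 0.14 and -1.79 ± 0.23 on the log2 scale. The ubiquitin-conjugating enzyme UBE2G2 was one of the 2 that rose (0.64 ± 0.097).

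Sensors of ER stress followed the same direction, with 7 of 10 lower, 1 higher and a median of -0.57 (0.02 under spike-in scaling). The transcription factor XBP1 measured 41.5, 37.5 and 59.6 CPM in refed and 233, 179.6 and 210.4 CPM in starved libraries, a log2 change of -2.17 ± 0.26 (adjusted p = 0.00015). ERN1, the kinase and nuclease that splices XBP1 mRNA, changed by -1.67 ± 0.23. ATF6, a sensor that is activated by cleavage, measured 128, 110.4 and 120.1 CPM in refed and 137, 114 and 108 CPM in starved libraries, with a log2 difference of 0.00 ± 0.12 that did not pass the test. The groups overlapped for ATF6 and did not for XBP1 and ERN1.

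The ER stress response element (ERSE), bound by ATF6 and XBP1 with NF-Y, was searched as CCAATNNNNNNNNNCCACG on either strand. It occurred in 0.741% of genes called lower, in none of the 1499 genes called higher with a window and in 0.148% of all tested genes, that is in 10, 0 and 16 genes. Of 20 ER chaperone genes with a window 7 held it, a share of 35.0%. The sequences show it in HSPA5, XBP1 and CRELD2, a secreted ER protein, chosen for the match after values were seen.
HSPA5 (chr9:125241367-125241433, minus strand): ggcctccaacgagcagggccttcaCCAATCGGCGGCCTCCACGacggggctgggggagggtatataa
XBP1 (chr22:28800579-28800645, minus strand): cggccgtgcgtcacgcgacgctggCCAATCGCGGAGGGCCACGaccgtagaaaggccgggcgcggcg
CRELD2 (chr22:49918530-49918596, plus strand): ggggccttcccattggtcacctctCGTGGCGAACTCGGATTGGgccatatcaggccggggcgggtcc
The match begins 66 bases before the start in HSPA5, 52 in XBP1 and 80 in CRELD2, where it lies on the opposite strand. CRELD2 measured 85.4, 91.9 and 119 CPM in refed and 197, 164 and 145 CPM in starved libraries, a log2 change of -0.77 ± 0.14.

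Folding factors of the cytosol went the opposite way. Of 22 heat shock chaperones, co-chaperones and their factors, 16 were higher and 1 was lower, with a median log2 change of 1.15. DNAJA1, a co-chaperone of HSP70, measured 578, 649 and 499.9 CPM in refed and 167, 153 and 175 CPM in starved libraries, a log2 change of 1.80 ± 0.14 (adjusted p = 7.7e-06). HSPA8, the constitutive HSP70, measured 6607, 5825 and 5383 CPM in refed and 2333, 2066 and 3506 CPM in starved libraries. HSPH1, its nucleotide exchange factor, measured 572, 719.9 and 575 CPM in refed and 182, 189.9 and 246 CPM in starved libraries. None of the 3 overlapped between groups. The 1 member that fell was the heat shock factor HSF2 (-0.55 ± 0.16), whose call was lost without refed library 2, refed library 3, starved library 2 or starved library 3 (adjusted p = 0.059 to 0.11). Chaperonins, the barrel-shaped folding machines, were higher in 9 of 15 cases and lower in 2, with a median of 0.46. TCP1, a subunit of the cytosolic ring TRiC, measured 421, 432 and 369.9 CPM in refed and 167, 201 and 225 CPM in starved libraries, and its neighbour CCT5 changed by 0.80 ± 0.10. The mitochondrial pair HSPE1 (1.51 ± 0.14) and HSPD1 (0.47 ± 0.11) rose as well, while the prefoldin subunit PFDN4 fell (-0.67 ± 0.15). HSPA8, CCT5, HSPE1 and HSPD1 are uncertain because they share sequence with pseudogenes or other genes.

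Subunits of the proteasome, which degrades ubiquitinated proteins, were higher in 19 of 28 cases and lower in none, with a median of 0.40 and a range of 0.04 to 0.98. The count was 12 without starved library 1 and also 12 without starved library 2. The activator subunit PSME3 measured 289.9, 243 and 236 CPM in refed and 134, 115 and 142 CPM in starved libraries. The regulatory subunits PSMD12 (0.89 ± 0.15) and PSMD11 (0.66 ± 0.10) were among the members with the smallest p. Refed libraries lay above starved libraries in these 3 genes without overlap.

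A heat shock element, bound by HSF1, was searched as GAANNTTCNNGAA on either strand. It occurred in 0.934% of genes called higher, 0.297% of genes called lower and 0.547% of all tested genes with a window. In the heat shock list 6 of 19 genes with a window held it, 5 of them called higher. It is shown for HSPA8, for HSP90AA1, which encodes the inducible HSP90, and for CHORDC1, an HSP90 co-chaperone. HSP90AA1 and CHORDC1 were chosen for the match after values were seen.
HSPA8 (chr11:123062330-123062386, minus strand): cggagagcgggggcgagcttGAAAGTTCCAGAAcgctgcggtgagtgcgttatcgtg
HSP90AA1 (chr14:102087096-102087156, minus strand): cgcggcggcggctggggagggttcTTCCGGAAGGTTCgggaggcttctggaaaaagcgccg
CHORDC1 (chr11:90223073-90223133, minus strand): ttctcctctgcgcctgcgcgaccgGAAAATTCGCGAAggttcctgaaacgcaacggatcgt
The window of HSPA8 holds 2 matches and that of CHORDC1 holds 3, counted on both strands, and only the one farthest from the start is in capitals. That match begins 230 bases before the start in HSPA8, 60 in CHORDC1 and 88 in HSP90AA1, where it lies on the opposite strand. HSP90AA1 measured 4344, 4149.9 and 2882 CPM in refed and 1066, 1276 and 1412 CPM in starved libraries and is uncertain. CHORDC1 measured 95.5, 108 and 70.2 CPM in refed and 35.7, 29.6 and 23.2 CPM in starved libraries.

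**Figure D2:**
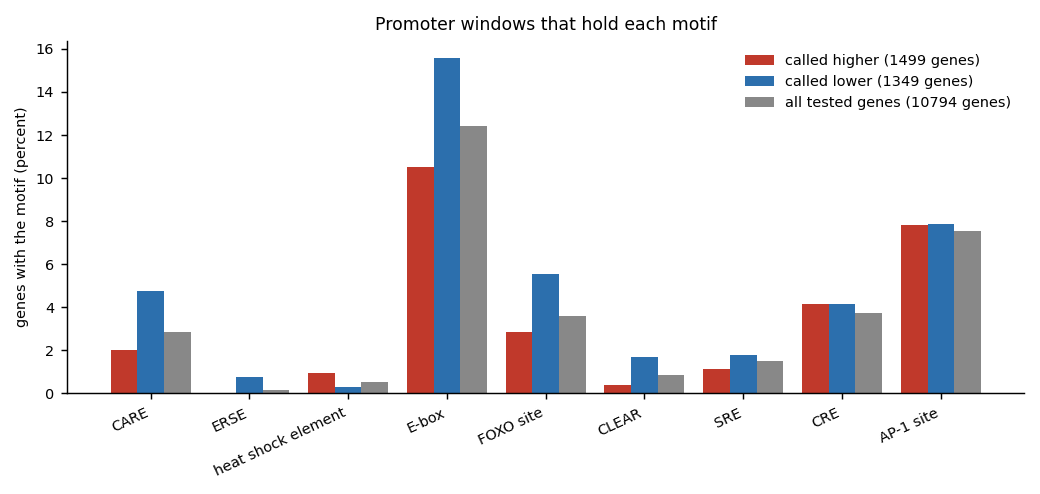
Percent of genes whose RefSeq promoter windows hold each of 9 motifs, for 1499 genes called higher, 1349 called lower and 10794 tested genes with a window. CARE and ERSE bars are tallest for genes called lower (4.74% and 0.741%), and the heat shock element bar for genes called higher (0.934%).

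The other motifs, read in the same windows on either strand, were the FOXO core GTAAACA, the E-box CACGTG and the 4 that follow. The cyclic AMP response element TGACGTCA occurred in 4.14% of genes called higher, 4.15% of those called lower and 3.71% of tested genes. The AP-1 site TGANTCA occurred in 7.81%, 7.86% and 7.52% of them in the same order. The sterol response element TCACNCCAC occurred in 1.13% of genes called higher, 1.78% of those called lower and 1.5% of tested genes. The lysosomal motif CLEAR, the E-box preceded by GT and followed by AC, occurred in 0.400% of genes called higher, 1.70% of those called lower and 0.862% of tested genes. A motif was counted wherever its letters occurred, so matches may overlap.

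Factors of ribosome assembly were higher in refed cells. Of 28 factors of the small subunit processome, the nucleolar complex that cuts and folds 18S rRNA, 21 were higher and none lower, with a median log2 change of 0.51. UTP3 measured 102, 124 and 137 CPM in refed and 36.5, 35.8 and 39.1 CPM in starved libraries, a log2 change of 1.71 ± 0.18. NOL11 (0.99 ± 0.12) and the box C/D core protein NOP58 (0.96 ± 0.11) were also higher. Of 28 assembly factors of the large subunit 21 were higher and none lower, with a median of 0.62. NOP16 measured 54.4, 57.8 and 65.1 CPM in refed and 26.5, 24.2 and 26.1 CPM in starved libraries, and LYAR measured 37.7, 32.9 and 29.9 CPM in refed and 15.4, 14.5 and 13.05 CPM in starved libraries. Both were separated without overlap and by about the same log2 change, 1.21 ± 0.15 for NOP16 and 1.22 ± 0.14 for LYAR. MAK16 (0.99 ± 0.12) and NIP7 (1.00 ± 0.12, uncertain) belong to the same list. In a shorter list of nucleolar chaperones and box C/D partners 6 of 11 were higher. Nucleolin, NCL, measured 1320.4, 1159.9 and 1251 CPM in refed and 871, 924 and 1011 CPM in starved libraries (0.41 ± 0.10). Nucleophosmin, NPM1, which is uncertain, overlapped between groups, at 2005, 2029 and 2244 CPM in refed and 2170.4, 2148 and 3025 CPM in starved libraries, and did not pass the test. The E-box CACGTG, bound by MYC and by TFEB-type factors, occurred in windows of 11 of 24 processome genes and 8 of 22 large subunit factors. It also occurred in 10.5% of all genes called higher, 15.6% of those called lower and 12.4% of tested genes. Named here as holders that were not called are FBL, NOL6, PWP2, RCL1 and RRP9 of the processome and MDN1 and PES1 of the large subunit factors.

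RNA polymerases I and III, which transcribe rRNA and tRNA, were higher in 7 of 25 subunits and factors and lower in 2. POLR3K (1.21 ± 0.17), POLR3G (0.86 ± 0.18) and POLR1B (0.46 ± 0.11) were higher. The polymerase I factor RRN3, which is uncertain, rose by 0.40 ± 0.13 with every library but lost its call without refed library 1, refed library 3, starved library 1 or starved library 2 (adjusted p = 0.088 to 0.13). In contrast to their assembly factors, none of 32 cytosolic ribosomal protein genes tested was called in either direction (DESeq2 called 0 higher and 2 lower), with a median of -0.09 (0.51 under spike-in scaling) and a range of -0.41 to 0.06. An unadjusted p under 0.05 was found for 3 of them. RPL22L1, a paralogue of RPL22, measured 143, 126 and 143 CPM in refed and 175, 123 and 172 CPM in starved libraries. Of 16 host genes of small nucleolar RNAs, 8 were lower and none higher, with a median of -0.48 (0.11 under spike-in scaling). GAS5, a host gene whose spliced RNA is read by ribosomes and then decayed, measured 430.3, 491 and 569 CPM in refed and 953, 831 and 1179 CPM in starved libraries. SNHG8 measured 42.6, 67.7 and 94.2 CPM in refed and 228, 178 and 255 CPM in starved libraries. SNHG1 changed by -0.84 ± 0.17. The refed libraries of all 3 lay below the starved ones.

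Of 28 translation factors 10 were higher and 8 lower, and with spike-in scaling 12 were higher and none lower. EIF4E, which binds the mRNA cap, measured 146, 115 and 109 CPM in refed and 66.6, 64.9 and 74.7 CPM in starved libraries. The subunit-joining factor EIF5B changed by 0.84 ± 0.12. EIF4B, an activator of the helicase EIF4A, measured 672, 716 and 755 CPM in refed and 1465, 1516 and 1603 CPM in starved libraries (-1.10 ± 0.15), and the helicase paralogue EIF4A2 changed by -0.79 ± 0.20. EIF4B is uncertain, and its refed libraries were at about a factor of 2 below the starved ones. The count of factors that were lower was 5 without refed library 1, 3 without refed library 2 and 5 without starved library 3.

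**Figure D3:**
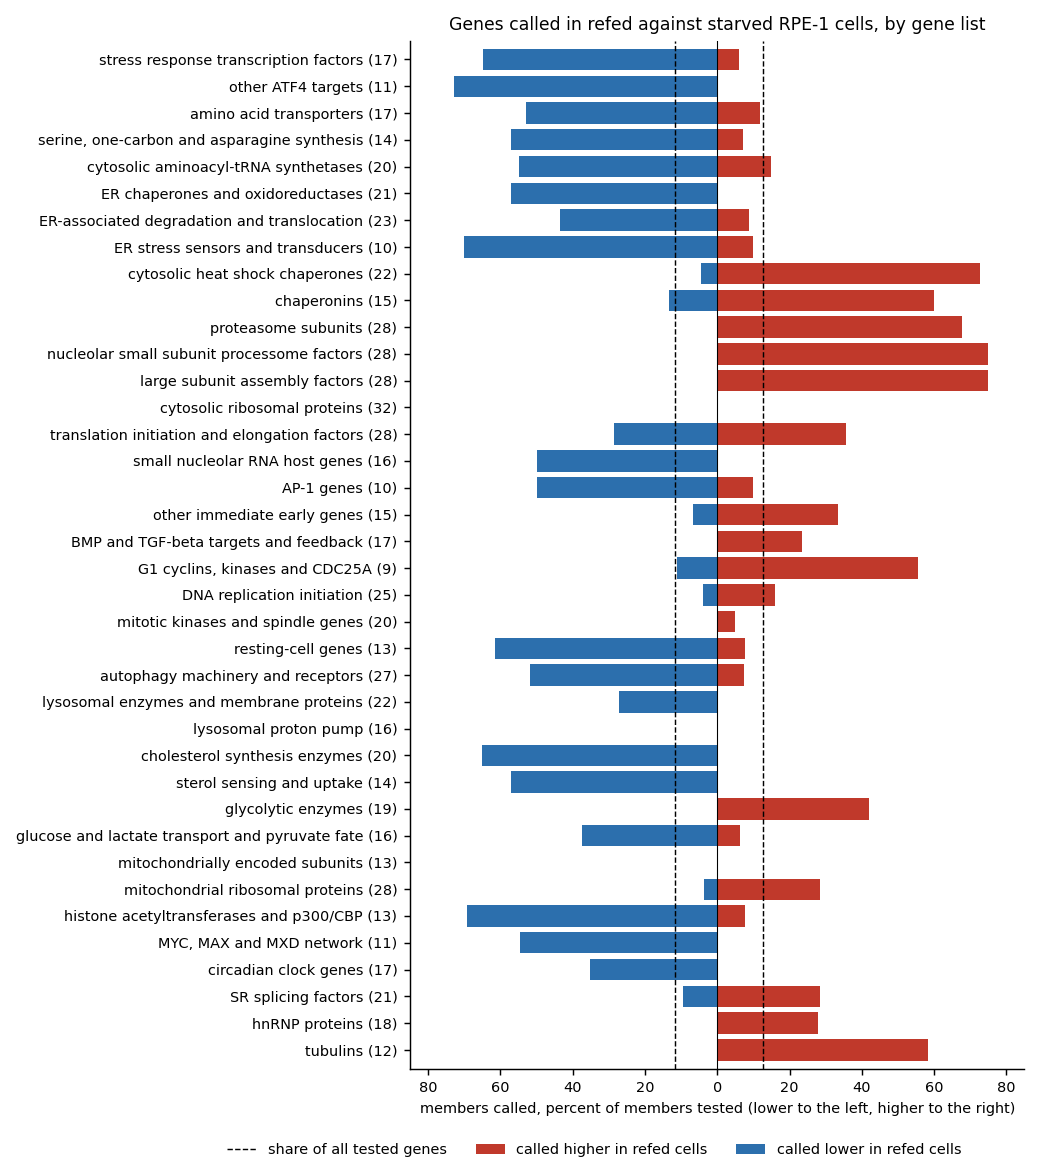
Percent of tested members called lower (left, blue) and higher (right, red) in refed against starved cells for 38 gene lists, with the number tested in brackets. Dashed lines mark 11.7% lower and 12.6% higher among all 15263 genes, from which stress, ER and sterol lists depart to the left and cytosolic chaperone, proteasome and ribosome assembly lists to the right. With spike-in scaling 189 of the genes tested are lower (1.24%), and the medians of several lists on the left change sign.

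Immediate early genes, which growth factors induce rapidly and for a short time, were higher only in part at 4 h. Among 10 genes of AP-1 and related factors, some of which ERK and JNK induce, 5 were lower and 1 higher. ATF3, also counted among the stress response factors, was among the 5. The lower count was 3 without refed library 1 or without starved library 2. FOS measured 1.65, 2.96 and 1.32 CPM in refed and 6.82, 5.11 and 9.55 CPM in starved libraries. JUND measured 42.1, 45.1 and 59.2 CPM in refed and 159.9, 219 and 140.2 CPM in starved libraries. FOSL1, a late AP-1 gene, was the 1 member called higher, at 268, 244 and 358 CPM in refed and 161, 160.3 and 154 CPM in starved libraries. JUN (log2 change 0.55 ± 0.20, adjusted p = 0.062) and JUNB (0.10 ± 0.41, adjusted p = 0.89) did not pass the test, though JUN did without refed library 1 (adjusted p = 0.034) or starved library 2 (adjusted p = 0.0072). Of 15 other immediate early genes 5 were higher and 1 lower, and the higher count was 3 without refed library 2 or 3 or starved library 1 or 2. The survival gene MCL1 measured 411, 393 and 451 CPM in refed and 247, 207 and 204 CPM in starved libraries, and KLF10 changed by 0.87 ± 0.16. EGR1 (0.04 ± 0.38), IER3 (-0.24 ± 0.25, uncertain) and MYC (-0.66 ± 0.26, adjusted p = 0.083) did not pass, though MYC did without starved library 3 (adjusted p = 0.035). CYR61, also named CCN1, rose by 0.66 ± 0.20 with every library and lost its call without refed library 1, refed library 2, refed library 3, starved library 1 or starved library 2 (adjusted p = 0.050 to 0.12).

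Inhibitors that ERK induces against itself were higher in 3 of 13 cases and lower in 2, and none was lower without refed library 1, refed library 3 or starved library 2. SPRY4 measured 27.3, 39.3 and 47.4 CPM in refed and 12.5, 15.03 and 14.3 CPM in starved libraries, and the ERK phosphatase DUSP7 measured 50.1, 45.2 and 53.97 CPM in refed and 22.3, 20.4 and 17.8 CPM in starved libraries. DUSP6 (adjusted p = 0.21, uncertain) and DUSP5 (adjusted p = 0.2) did not pass. Of 6 EGF receptor ligands tested HBEGF rose (1.32 ± 0.25) and NRG1 fell (-0.88 ± 0.17), and EREG had too few counts to be tested. Of 15 growth factor receptors 1 was higher and 2 were lower, with a median of -0.03 (0.58 under spike-in scaling). The insulin receptor gene INSR measured 11.3, 7.71 and 9.01 CPM in refed and 22.7, 22.1 and 21.1 CPM in starved libraries, and PDGFRB changed by -1.38 ± 0.21. The receptor TGFBR2 was the 1 that rose (0.57 ± 0.13). Along the insulin and FOXO axis 3 of 13 genes were lower, with a median of -0.13 (0.45 under spike-in scaling), the adaptor IRS2 (-1.55 ± 0.35) and FOXO4 (-1.35 ± 0.24) among them. PIK3R3, a regulatory subunit of PI 3-kinase, was higher, at 45.2, 53.8 and 54.6 CPM in refed and 15.4, 16.8 and 15.9 CPM in starved libraries. The groups of SPRY4, DUSP7 and PIK3R3 did not overlap. Of 15 inhibitors of mTORC1, 5 were lower and 2 higher, with a median of -0.40 (0.20 under spike-in scaling). The lower count was 2 without refed library 1, refed library 2 or starved library 1, and 3 without refed library 3 or starved library 2. DDIT4, also called REDD1, held its call in each of these fits and measured 8.61, 14.5 and 12.6 CPM in refed and 175, 149 and 80.5 CPM in starved libraries (-3.50 ± 0.28).

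Targets and feedback genes of BMP and TGF-beta were higher in 4 of 17 cases and lower in none. ID1, an inhibitor of differentiation factors, measured 5.59, 11.9 and 13.6 CPM in refed and 2.69, 2.18 and 1.57 CPM in starved libraries, and ID3 measured 28.3, 36.1 and 51.5 CPM in refed and 4.09, 5.19 and 5.28 CPM in starved libraries. Both genes were several fold apart, and refed library 1 was the lowest of the refed group in each. GREM1, a secreted BMP antagonist, rose too (0.97 ± 0.22). CTGF, also named CCN2 (0.78 ± 0.29, adjusted p = 0.068), did not pass with every library but did without starved library 3 (adjusted p = 0.032). Of 17 SRF and actin targets 5 were higher and 1 lower, with 2 higher without refed library 2 and 3 without refed library 3. ACTB, cytoplasmic beta-actin, measured 5544, 5663 and 5745 CPM in refed and 3331, 4498 and 3953 CPM in starved libraries. The NF-kappaB inhibitor NFKBIA (0.74 ± 0.14) was 1 of 4 of 14 members of its list that were higher, a count that was 1 without starved library 2 and 2 without refed library 1 or starved library 3. Among 11 cytokines tested, LIF measured 348, 453 and 505 CPM in refed and 80.3, 82.4 and 74.1 CPM in starved libraries, a log2 change of 2.46 ± 0.14 (adjusted p = 5.7e-07). The monocyte attractant CCL2 also rose (1.57 ± 0.34). CXCL8 (1.25 ± 0.47, adjusted p = 0.073) and IL6 (-0.44 ± 0.34, adjusted p = 0.38, uncertain) did not pass.

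Genes of the G1 phase were higher in part. Of 9 G1 cyclins, kinases and CDC25A, 5 were higher and 1 lower, with a median of 0.79, and the higher count was 3 without refed library 1, starved library 1 or starved library 2. CCND3, a D-type cyclin that activates CDK4 and CDK6, measured 48.2, 44.8 and 46.7 CPM in refed and 15.01, 19.5 and 15.5 CPM in starved libraries (1.48 ± 0.13, adjusted p = 1.2e-05). It was tight in both groups. CCNE2 (2.32 ± 0.51, uncertain) and the phosphatase CDC25A (1.86 ± 0.32) had refed library 1 far above the other two, and without that library their log2 changes were 1.30 and 1.29. CCNE1 (1.32 ± 0.36) lost its call without refed library 1, starved library 1 or starved library 2 (adjusted p = 0.051 to 0.095), and its change was 0.84 without refed library 1. The lower member was CDK4 (-0.39 ± 0.095, uncertain), whose change was 0.19 under spike-in scaling. CCND1 measured 1577, 1186 and 1300.0 CPM in refed and 1004, 620.5 and 791 CPM in starved libraries and did not pass (adjusted p = 0.067). Among 7 CDK inhibitors CDKN2B (-1.21 ± 0.27) and CDKN1B (-0.70 ± 0.19) were lower, and CDKN1B lost its call without refed library 1 or starved library 3 (adjusted p = 0.065 to 0.068). CDKN1A, which encodes p21, measured 335, 364 and 529 CPM in refed and 387, 438 and 263 CPM in starved libraries, with overlap between groups.

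Of 25 genes of DNA replication 4 were higher and 1 was lower, near the 12.6% higher of all genes. PCNA, the sliding clamp, measured 166, 105 and 124 CPM in refed and 54.5, 52.4 and 56.4 CPM in starved libraries (1.28 ± 0.16). CDT1, the licensing factor, was the member that was lower, at 9.77, 4.88 and 6.71 CPM in refed and 17.4, 21.8 and 12.5 CPM in starved libraries (-1.27 ± 0.28). The groups of both genes did not overlap. The higher count was 1 without refed library 1, 9 without refed library 2 and 2 without starved library 1 or 2. Of 13 E2F and pocket protein genes 4 were higher and 3 lower, with 2 higher without refed library 1 or starved library 2. E2F3 rose (0.54 ± 0.11), the repressor E2F7 fell (-0.86 ± 0.21) and E2F1 did not pass (0.11 ± 0.26). Of 20 mitotic genes 1 was higher and none lower. It was the spindle kinase AURKA (0.54 ± 0.17), whose call was lost without refed library 1, refed library 3, starved library 1, starved library 2 or starved library 3 (adjusted p = 0.051 to 0.17). Of 5 BTG and TOB genes, which restrain proliferation, 1 was lower and BTG2 was higher (1.14 ± 0.23).

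Genes typical of resting cells were lower. In that list 8 of 13 genes were lower and 1 higher, with a median of -0.66 (-0.05 under spike-in scaling), and the lower count stayed at 8 when any 1 library was left out. CCNG2, an atypical cyclin under FOXO control, measured 14.2, 20.1 and 11.4 CPM in refed and 52.3, 66.9 and 62.2 CPM in starved libraries. KLHL24, an adaptor of a ubiquitin ligase, measured 5.24, 9.17 and 6.33 CPM in refed and 50.8, 68.2 and 68.7 CPM in starved libraries. YPEL2 (-2.16 ± 0.27) and YPEL3 (-1.94 ± 0.34) were lower too. In each the groups were well separated. The exception was TXNIP, which is induced by glucose through MondoA and blocks glucose uptake. It measured 36.7, 25.9 and 80.7 CPM in refed and 8.28, 7.49 and 9.48 CPM in starved libraries (2.51 ± 0.61), and lost its call without refed library 3 (adjusted p = 0.050). Its relative ARRDC4, and PDK4, had too few counts to be tested. The FOXO core GTAAACA occurred in windows of 5.56% of genes called lower, 2.87% of those called higher and 3.61% of tested genes.

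Autophagy genes were lower in 14 of 27 cases and higher in 2, with a median of -0.48 (0.09 under spike-in scaling). RB1CC1, a scaffold of the initiating kinase complex, measured 49.7, 48.8 and 44.5 CPM in refed and 142, 138 and 144 CPM in starved libraries, a log2 change of -1.57 ± 0.12 (adjusted p = 7.1e-06). WIPI1, which binds the lipid of the forming membrane, measured 18.1, 23.7 and 33.2 CPM in refed and 133, 108 and 93.6 CPM in starved libraries and is uncertain. GABARAPL1, a membrane-bound ubiquitin-like protein, measured 10.8, 15.7 and 25.96 CPM in refed and 45.3, 43.1 and 49.5 CPM in starved libraries. RB1CC1 was very tight, and in the other two refed library 3 was nearest to the starved group. The conjugation factor ATG16L1 was higher (0.68 ± 0.12). The cargo receptor SQSTM1, uncertain, fell by 0.82 ± 0.25 and lost its call without refed library 1, refed library 2, starved library 1, starved library 2 or starved library 3 (adjusted p = 0.057 to 0.11). Of 22 lysosomal enzymes and membrane proteins 6 were lower and none higher, with a median of -0.20 (0.44 under spike-in scaling). That count was 1 without starved library 2, 2 without refed library 1 and 3 without starved library 3. The lysosomal calcium channel MCOLN1 fell (-0.85 ± 0.21) but not without starved library 2 (adjusted p = 0.053). None of 16 subunits of the lysosomal proton pump passed the test, where DESeq2 called 0 higher and 0 lower and 2 had an unadjusted p under 0.05.

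Sterol genes were lower in refed cells. Of 20 enzymes of cholesterol synthesis 13 were lower and none higher, with a median of -0.57 (0.03 under spike-in scaling). HMGCS1, at the entry of the pathway, measured 154, 139 and 112 CPM in refed and 405, 351 and 430.3 CPM in starved libraries, a log2 change of -1.55 ± 0.14 (adjusted p = 1.9e-05). Every refed library of it lay below every starved library. MSMO1 (-1.15 ± 0.16) and SQLE (-0.73 ± 0.13) lie further down the pathway. Of 14 sterol sensing and uptake genes 8 were lower and none higher, with 5 lower without starved library 2. STARD4, a cholesterol carrier, measured 77.4, 67.3 and 56.7 CPM in refed and 303, 237 and 246 CPM in starved libraries. INSIG1, which retains the SREBP complex, measured 76.6, 57.9 and 50.2 CPM in refed and 177, 184 and 188 CPM in starved libraries. SREBF2 (-0.83 ± 0.14) and the cholesterol exporter ABCA1 (-1.65 ± 0.34), a gene induced by sterols through LXR, were both lower. Of 16 genes of fatty acid synthesis 2 were lower and 1 was higher, with a median of -0.16 (0.40 under spike-in scaling). The lower count was 1 without refed library 1, refed library 3 or starved library 2 and 4 without starved library 3, and none was higher when any library other than starved library 3 was left out. FASN did not pass with every library (-0.67 ± 0.31, adjusted p = 0.14) but did without starved library 3 (adjusted p = 0.03). In the PPAR list ANGPTL4 and the carnitine carrier SLC25A20 (1.25 ± 0.23) were higher.

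Glycolytic enzymes were higher in 8 of 19 cases and lower in none, with a median of 0.31. PGK1 measured 443, 431 and 379.9 CPM in refed and 246, 262 and 297 CPM in starved libraries, and TPI1 measured 769, 732 and 661 CPM in refed and 438, 485 and 482 CPM in starved libraries. PFKFB3, which makes the activator of phosphofructokinase, rose by 0.53 ± 0.13, while HK2 did not pass (-0.12 ± 0.16). LDHA, which reduces pyruvate to lactate, measured 1041, 785 and 690.2 CPM in refed and 304, 360.1 and 314 CPM in starved libraries (1.36 ± 0.18). Around it, glucose and lactate carriers and enzymes of pyruvate fate were lower in 6 of 16 cases, with a median of -0.32 (0.29 under spike-in scaling), and 3 were lower without starved library 2. The main glucose carrier SLC2A1 measured 199, 261 and 198 CPM in refed and 367, 561 and 630.3 CPM in starved libraries. SLC2A12 (-2.30 ± 0.37, uncertain) and the pyruvate carboxylase PC (-1.45 ± 0.30) were lower. SLC2A3 (-1.05 ± 0.27, uncertain) lost its call without refed library 1, starved library 2 or starved library 3 (adjusted p = 0.052 to 0.06). All 3 refed libraries of SLC2A1 lay below, and all 3 of LDHA above, the starved libraries. Of 16 hypoxia-inducible genes 6 were lower and 1 higher, with a median of -0.34 (0.22 under spike-in scaling). NDRG1 measured 11.8, 19.7 and 20.95 CPM in refed and 72.8, 66.2 and 54.1 CPM in starved libraries. ADM, the vasodilator adrenomedullin, changed by -1.29 ± 0.25, and VEGFA did not pass with every library (-0.85 ± 0.32, adjusted p = 0.076) but did without refed library 2 (adjusted p = 0.041) or starved library 3 (adjusted p = 0.047).

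For nucleotide and polyamine synthesis, 5 of 23 and 3 of 9 genes were higher, with 4 and 0 lower. UMPS, the last enzyme of UMP synthesis, measured 64.4, 51.5 and 58.4 CPM in refed and 29.9, 26.04 and 27.02 CPM in starved libraries, and CTPS1, which makes CTP, changed by 0.88 ± 0.19. AMD1, which supplies aminopropyl groups for polyamines, rose by 1.07 ± 0.20, and ODC1 did not pass (0.36 ± 0.17). The 5 nucleotide genes that were higher became 3 without refed library 1 or starved library 2, and the 4 lower became 2 without refed library 1 or 2 or starved library 1 or 2.

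Mitochondrial genes encoded in the nucleus were partly higher. Of 28 mitochondrial ribosomal proteins 8 were higher and 1 lower, with 5 higher without starved library 2. Of 22 complex I subunits and factors 4 (18.2%) were higher, beside 12.6% of all genes tested. That count was 2 without refed library 2 or starved library 1 and 9 without starved library 3. The assembly factor NDUFAF4 was among the 4 (0.68 ± 0.14). Among 21 import factors and proteases 7 were higher and 3 lower. TIMM8A, a chaperone of the intermembrane space, measured 24.04, 24.2 and 22.01 CPM in refed and 10.96, 11.9 and 10.98 CPM in starved libraries, and GRPEL1, a partner of mitochondrial HSP70, changed by 0.92 ± 0.12. The matrix protease LONP1 fell (-1.06 ± 0.22). None of 13 mitochondrially encoded subunits passed, where DESeq2 called 0 higher and 0 lower and 0 had an unadjusted p under 0.05. MT-CYB measured 2144, 2142 and 1596 CPM in refed and 1381, 1486 and 2304 CPM in starved libraries, and starved library 3, which had the highest mitochondrial share, was the highest of all.

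Among 17 NRF2 targets 1 was higher and 3 were lower. HMOX1, which degrades heme and is induced by oxidative and metal stress, measured 26.9, 28.5 and 44.7 CPM in refed and 157, 98.5 and 291 CPM in starved libraries (-2.45 ± 0.49). NFE2L2, which encodes NRF2, was also lower (-0.92 ± 0.11, uncertain), and the peroxidase PRDX1 was higher (0.70 ± 0.15, uncertain). Of 21 p53 targets 5 were higher and 5 lower. The death receptor FAS measured 122, 117 and 136 CPM in refed and 50.5, 46.4 and 53.3 CPM in starved libraries and was higher, as was TIGAR (1.20 ± 0.21, uncertain). Counts of p53 targets were 3 higher without refed library 3 or starved library 2, and 2 lower without refed library 1 or 2 or starved library 1, and 3 lower without starved library 2.

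Histone acetyltransferase genes were lower in 9 of 13 cases and higher in 1, with a median of -0.49 (0.07 under spike-in scaling). KAT6B measured 37.2, 38.2 and 28.5 CPM in refed and 73.7, 83.9 and 81.3 CPM in starved libraries, and the coactivator NCOA2 measured 18.4, 18.2 and 16.8 CPM in refed and 36.8, 44.2 and 35.8 CPM in starved libraries. Both showed a gap between groups of about a factor of 2. CREBBP, which encodes CBP, changed by -0.84 ± 0.17. Its paralogue EP300, which encodes p300, changed by -0.49 ± 0.12, lost its call without starved library 2 (adjusted p = 0.053) and had a change of 0.13 under spike-in scaling. Of 16 histone deacetylases 1 was higher, HDAC1 (0.57 ± 0.097), and 3 were lower, with HDAC6 (-0.92 ± 0.21) among them. Of 26 chromatin remodellers and methyltransferases 9 were lower and 1 higher, with a median of -0.31 (0.23 under spike-in scaling), CHD6 (-1.11 ± 0.19) and KMT2A (-1.21 ± 0.28) among the lower ones.

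In the MYC, MAX and MXD network, whose MXD proteins compete with MYC for MAX, 6 of 11 genes were lower and none higher, with a median of -0.66 (-0.06 under spike-in scaling) and 3 lower without starved library 2. MXD1 measured 6.82, 8.88 and 6.54 CPM in refed and 38.5, 30.7 and 34.6 CPM in starved libraries. MXI1 (-1.56 ± 0.24) and the repressor MNT (-1.68 ± 0.32) were lower as well, and MXD4 did not pass (-0.32 ± 0.32). Clock genes were lower in 6 of 17 cases and higher in none, with a median of -0.53 (0.08 under spike-in scaling). That count was 3 without refed library 1 or starved library 2 and 2 without refed library 2. The nuclear receptor NR1D2 measured 36.1, 36.3 and 35.2 CPM in refed and 142, 161 and 156 CPM in starved libraries, with little spread within either group, and NR1D1 changed by -2.77 ± 0.40. PER1 (-0.85 ± 0.36) and PER2 (0.59 ± 0.30), which serum induces early, did not pass. Of 12 Krüppel-like factors 2 were higher and 3 lower, with a median of -0.21 (0.34 under spike-in scaling). KLF4 (-2.23 ± 0.34) and KLF11 (-2.13 ± 0.30) were lower, and KLF2 (-0.79 ± 0.45) and KLF6 (0.24 ± 0.17) did not pass. The nuclear RNAs MALAT1 (-0.24 ± 0.42) and NEAT1 (-0.94 ± 0.45) did not pass either, though NEAT1 did without refed library 2 (adjusted p = 0.015), and none of 9 such RNAs did (1 higher and 1 lower with DESeq2, 2 at an unadjusted p under 0.05). For the sodium-proton exchangers and bicarbonate carriers, which set the pH of the cell, 2 of 15 were lower and none higher, with a median of -0.27 (0.28 under spike-in scaling) and 4 lower without refed library 3.

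Tubulins were higher in 7 of 12 cases and lower in none, with a median of 0.77, and the count was 4 without refed library 1 or starved library 2. TUBB2A measured 25.8, 25.1 and 31.1 CPM in refed and 9.82, 9.42 and 12.05 CPM in starved libraries, and TUBB6 changed by 1.13 ± 0.26. Both are uncertain, since tubulin genes share sequence. Integrin genes were higher in 2 of 12 cases and lower in 1. ITGA5, the fibronectin receptor chain, measured 855, 913 and 813 CPM in refed and 375, 369 and 359 CPM in starved libraries, and ITGB4 changed by -1.52 ± 0.35. Of 20 matrix genes 4 were higher and 2 lower, with 1 higher without refed library 1 or starved library 2. COL6A3 measured 37.4, 49.7 and 35.1 CPM in refed and 13.6, 6.11 and 7.41 CPM in starved libraries.

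Some RNA processing genes changed in level, and in some the estimated shares of transcript models differed between groups. SR proteins bind exons and promote splicing. Of 21 SR proteins and related splicing factors 6 were higher, all of the SRSF family. The 2 that were lower were PNISR and SRRM2. None was lower without refed library 1, refed library 3, starved library 1 or starved library 2. SRSF7 measured 165, 159 and 179 CPM in refed and 83.8, 88.4 and 101 CPM in starved libraries (0.88 ± 0.15), and SRSF3 measured 493, 465 and 493 CPM in refed and 237, 306 and 336 CPM in starved libraries (0.72 ± 0.15). SRSF1 (0.77 ± 0.12) and SRSF2 (0.75 ± 0.12), both uncertain, were higher too. Refed libraries lay above starved libraries in all 4. CLK and SRPK kinases phosphorylate SR proteins. Of 8 CLK, DYRK1 and SRPK kinases 3 were lower, CLK1 (-0.81 ± 0.19) and DYRK1A among them. The median of these 8 was -0.47 (0.13 under spike-in scaling), and 1 was lower without refed library 1 or starved library 2. Of 18 hnRNP proteins 5 were higher and none lower, with 3 higher without refed library 1 or starved library 2. HNRNPM measured 249.5, 246 and 258 CPM in refed and 100.2, 122 and 106 CPM in starved libraries, and HNRNPAB changed by 0.94 ± 0.11.

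Many of these genes make transcripts that carry a premature stop codon or keep an intron and are degraded or held in the nucleus, a known means by which SR proteins limit their own level. The share of a gene's expected counts on models that GENCODE 29 annotates as nonsense-mediated decay or retained intron was computed per library. Of 4852 genes with at least 10 CPM and a mean share of at least 1%, 636 (13.1%) had a lower share in every refed than in every starved library, and 218 (4.49%) a higher one, with a median difference of -0.70 percentage points. Among 20 SR proteins and related splicing factors with such a share, 9 were lower without overlap and none higher, and 19 had a lower mean. The median difference over the 20 was -7.56 points. SREK1, SON, LUC7L and LUC7L2, which are not of the SRSF family, were among the 9. Among 11 hnRNP genes 4 were lower without overlap (median difference -0.95 points), and among 11 decay factor genes 4 (-0.80 points). The same held for 3 of 8 ER chaperone genes (-1.56 points) and 3 of 5 CLK, DYRK1 and SRPK kinase genes (-0.98 points). In none of these lists was a gene higher without overlap. Of 9 cytosolic chaperone, 10 cholesterol synthesis and 13 cytosolic tRNA synthetase genes 2 each were lower and none higher, and of 4 stress response factors 1 was higher and none lower (median 0.25 points). Among the ER chaperone genes, PDIA3 had 92.3% of its counts on such models in refed and 91.9% in starved cells. P4HB had 69.1% in refed and 65.6% in starved cells, and both genes overlapped between groups. Whether RNA counted on such models was degraded or held in the nucleus was not tested. The split of reads between transcript models is an estimate whose error is not in the files.

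For SRSF3 the share was 34.2, 45.7 and 34.3 percent in refed and 54.5, 66.2 and 55.1 percent in starved libraries. For SRSF7 it was 31.4, 32.2 and 19.6 percent in refed and 47.9, 51.95 and 48.5 percent in starved libraries. TRA2B, a splicing activator, had 31.6, 46.6 and 37.96 percent in refed and 55.8, 64.01 and 52.4 percent in starved libraries. The groups of all 3 genes were apart, though the level of TRA2B did not pass the test (0.17 ± 0.17). The kinase CLK1 averaged 56.9% ± 6.49 in refed and 76.7% ± 7.02 in starved cells (SD, n = 3 each), and CLK4 averaged 30.2% ± 1.32 in refed and 46.1% ± 6.88 in starved cells. HNRNPH1 averaged 36.9% ± 6.31 in refed and 57.96% ± 2.93 in starved cells and HNRNPDL 14.8% ± 4.19 in refed and 31.2% ± 3.28 in starved cells. The next genes were chosen after their values were seen. The speckle protein SON averaged 8.14% ± 1.93 in refed and 23.1% ± 5.60 in starved cells, SREK1 21.2% ± 4.47 in refed and 37.9% ± 9.77 in starved cells, and MAGOHB, a subunit of the exon junction complex, 38.5% ± 3.69 in refed and 51.2% ± 3.25 in starved cells. The ER gene CRELD2 averaged 0.831% ± 0.150 in refed and 9.66% ± 1.47 in starved cells, and the ER co-chaperone DNAJB11, which is uncertain, 1.79% ± 0.648 in refed and 8.20% ± 1.45 in starved cells. A gene that went the other way was EIF2AK4, the eIF2 kinase that senses uncharged tRNA, with 6.08% ± 0.989 in refed and 0.451% ± 0.364 in starved cells.

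**Figure D4:**
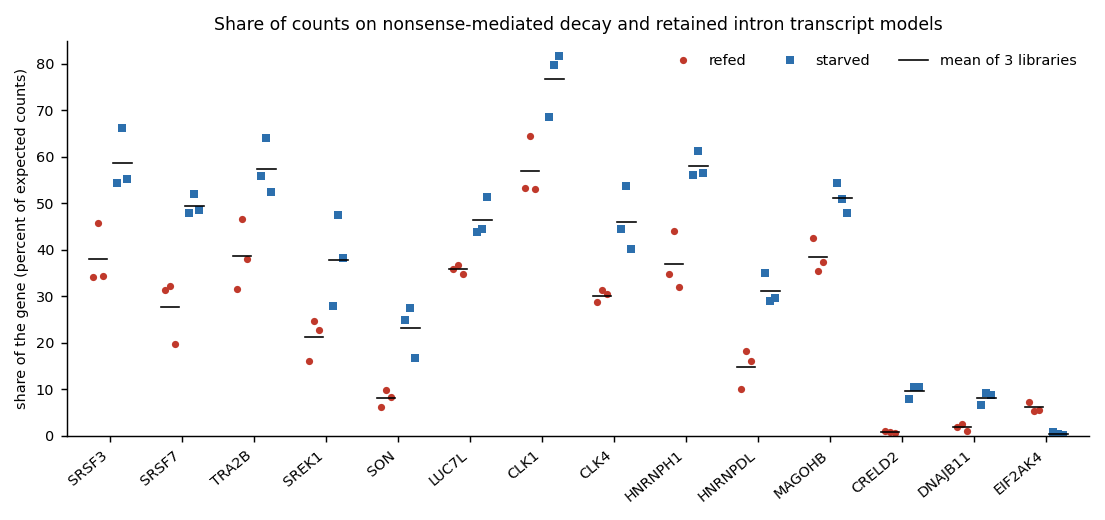
Share of expected counts on nonsense-mediated decay and retained intron models, in percent of the gene, for 14 genes in 3 refed (circles, left) and 3 starved libraries (squares, right), with the mean as a bar. In 13 genes the refed libraries lie below the starved libraries, and in EIF2AK4 above them. The genes were chosen after their values were seen, except members of the isoform panel.

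Over all protein-coding genes together the difference was small. Models annotated as nonsense-mediated decay took 3.24% ± 0.114 of the counts in refed and 3.46% ± 0.122 in starved cells (SD, n = 3 each; exact two-sided permutation test over libraries, p = 0.1, the smallest that 3 against 3 allows). Without mitochondrially encoded genes p was 0.2, and with shares of TPM it was 0.3. Retained intron models took 3.40% ± 0.328 in refed and 3.63% ± 0.167 in starved cells (exact permutation p = 0.4), a difference of -0.235 percentage points that was -0.047 without refed library 3. Processed transcript models took 2.90% in refed and 2.91% in starved cells (exact permutation p = 0.9).

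Single transcript models were tested for usage, that is for a change that differs from the rest of the gene, with edgeR's diffSpliceDGE. Of 55747 models in 10896 genes 191 (0.343%) were called in 185 genes, 85 higher and 106 lower, while 3228 had an unadjusted p under 0.05. On simulated data this test called more models of genes without a change in usage than models with one, so only the 9 models that a second test called as well (limma on the log2 share of TPM) are described as changed. Of the 191, 102 had a mean share under 5% in both groups and 167 a mean share under 0.05% in at least 1 group. Of the same 191, 23 were kept in all fits that left out 1 library. SRSF7-201, a protein-coding model, made up 8.91, 6.98 and 9.38 percent of its gene's TPM in refed and 0, 0 and 0.282 percent in starved libraries (adjusted p = 4.4e-08 for usage and 0.014 by limma). HSP90B1-208, a retained intron model of the ER chaperone GRP94, made up 0.405, 0.238 and 0.245 percent in refed and 4.07, 3.14 and 4.28 percent in starved libraries. BBC3-202, of the p53 target PUMA, made up 0, 0 and 0 percent in refed and 23.6, 24.7 and 24.4 percent in starved libraries. In these 3 the model was close to absent from 1 of the groups. LZTS2-203 made up 0, 0 and 0.638 percent in refed and 11.97, 20.4 and 20.7 percent in starved libraries. SNHG15-204 made up 4.24, 5.07 and 7.75 percent in refed and 0, 0 and 0 percent in starved libraries. Others were SRSF5-204 and the retained intron model PLXNA1-202, both lower in refed cells, and ETFA-202, which was higher. Among these 9, all 6 fits without 1 library kept the usage call for HSP90B1-208, LZTS2-203 and SRSF7-201. By size of the share change, the 12 largest usage calls in genes of at least 10 CPM without overlap were AHSA2P-211, AP4E1-203, BBC3-202, CAMSAP1-203, DOCK10-202, EIF4A2-207, POLM-202, RGS3-210, RIC8B-201, RNF13-212, SOCS4-201 and SRSF3-203. Limma also called BBC3-202 alone among these 12. AHSA2P-211 made up 36.8, 16.8 and 35 percent in refed and 0, 0 and 0 percent in starved libraries, and RIC8B-201 made up 16.6, 24.3 and 18.2 percent in refed and 0, 0 and 0 percent in starved libraries. DOCK10-202 went the other way, at 0.0113, 7.26 and 0.0358 percent in refed and 38.9, 34.8 and 38.96 percent in starved libraries.

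**Figure D5:**
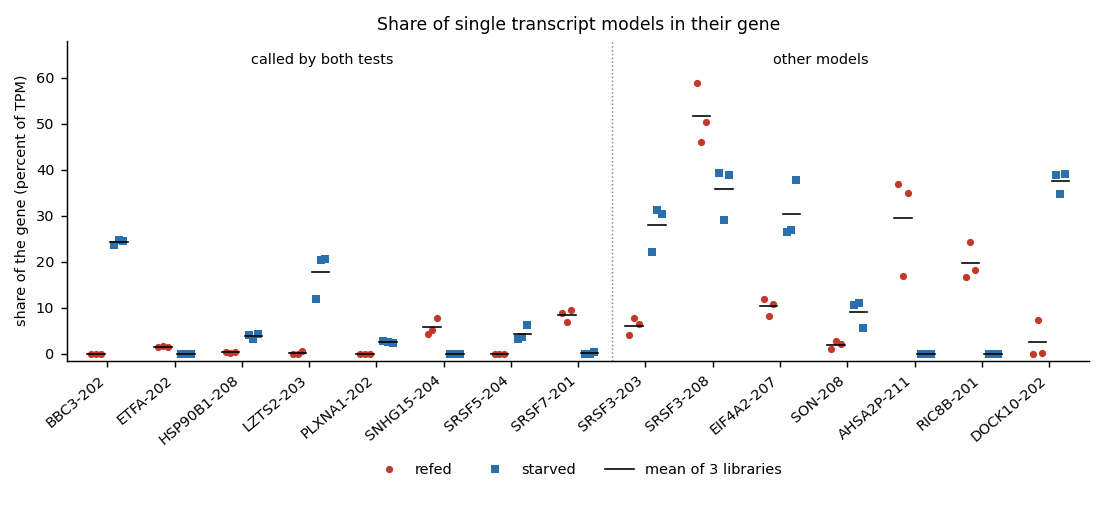
Share of single transcript models in the TPM of their gene, in percent, in 3 refed (circles, left) and 3 starved libraries (squares, right), with the mean as a bar. The 8 models left of the dotted line were called by both usage tests, and the 7 to its right were not. BBC3-202 is at 0 in the refed libraries and between 23.6 and 24.7 percent in the starved libraries.

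Of the 36 genes in the isoform panel, 8 models in 7 genes were called for usage, and SRSF7-201 and SRSF5-204 by both tests. SRSF3-203 includes an additional exon, its exon 4, with a premature stop codon and is annotated as a target of nonsense-mediated decay. It made up 4.03, 7.69 and 6.50 percent of the gene's TPM in refed and 22.02, 31.2 and 30.4 percent in starved libraries (adjusted p = 0.0066 for usage and 0.13 by limma). The coding model SRSF3-208 made up 58.7, 46.1 and 50.3 percent in refed and 39.3, 29.1 and 38.8 percent in starved libraries and rose in level by 1.32 ± 0.15 on the log2 scale (adjusted p = 0.0036). EIF4A2-207, a decay model of the helicase gene, skips exon 4 of EIF4A2-205. It made up 11.8, 8.07 and 10.8 percent in refed and 26.5, 26.97 and 37.8 percent in starved libraries, and its level fell by 2.37 ± 0.35 on the log2 scale (adjusted p = 0.01, against 0.012 for usage and 0.29 by limma). Each pair of groups was apart in share, while the 2 usage tests differed in their call. SON-208 made up 0.897, 2.63 and 2.20 percent in refed and 10.5, 10.9 and 5.46 percent in starved libraries. The exons in question are shown from GENCODE 29 (GRCh38), since they set the decay models apart, with the premature stop codon of the SRSF3 exon in capitals.
SRSF3-203 exon 4, first 34 of 456 bases (chr6:36599821-36599854, plus strand): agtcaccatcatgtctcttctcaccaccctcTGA
EIF4A2-205 exon 4, left out of EIF4A2-207 (chr3:186784962-186785101, plus strand): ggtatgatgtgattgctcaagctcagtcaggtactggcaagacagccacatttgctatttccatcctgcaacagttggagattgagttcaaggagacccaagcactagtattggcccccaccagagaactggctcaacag
The EIF4A2 exon is 140 bases long, which is not a multiple of the codon length, so its omission shifts the reading frame.

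Tested one by one for level, 1122 of 59656 transcript models (1.88%) in 1000 genes were called, 762 higher and 360 lower. The count was 78 when only the 6 compared libraries were fitted, 322 with spike-in scaling and 4609 with DESeq2, and the cause was not tested. Protein-coding models made up 669 of the 762 higher and 293 of the 360 lower models, and 35954 of the 59656 models tested.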

How the data were processed

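Poly-A RNA of RPE-1 cells was sequenced in 12 libraries of 4 groups of 3, prepared with a TruSeq stranded mRNA kit per the labels' protocols. The authors deposited 1 table per library with expected counts (estimated reads) and TPM for each of 182164 transcripts. Per the submitters' processing notes, Trimmomatic 0.36, STAR 2.7.0e and GRCh38.p10 were used. Which program estimated the counts, on what annotation and with what strand setting was not given in the sources used here.

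From the deposited expected counts, 92 spike-in sequences and 264 transcripts without a match in GENCODE 29 were set aside. The other 181808 were summed to 43481 genes and rounded to whole numbers. Genes and transcripts were filtered with a minimum count of 10 and a minimum total of 15. They were tested with edgeR 4.0.16 in R 4.3.3 (TMM, robust quasi-likelihood F test, all 12 libraries in 1 fit, Benjamini-Hochberg adjusted p under 0.05). The design had assumed whole counts. Isoform usage was tested with diffSpliceDGE and with limma 3.58.1 on the log2 share of the deposited TPM with an offset of 0.01. Shares under 0.0005% are given as 0. The scripts were tested on simulated data.

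The genes named are, first, the 10 largest changes in each direction (mean log2 CPM of at least 2 over all 12 libraries, no overlap of groups). Next are a panel of 89 genes and up to 4 called members of each list in each direction by the smallest p. Members of lists of at most 20 genes are named where their roles order the account. For isoforms they are the 12 largest changes of share and a panel of 36 genes. Exceptions are named as such. Members and lists were chosen with earlier results of these data known. A count of 3 corresponds to 0.104 to 0.201 CPM, and covers counting error only. A gene is called uncertain when more than 20% of its 31-base words occur elsewhere among the genes, or when exons of another gene cover more than 20% of it, since the files do not show how reads were split. Same-numbered libraries were checked for pairing. Alternatives were DESeq2 1.42.0, other scalings, filters and offsets, a replicate block, a fit of the 2 groups only and the omission of each library.

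Promoter windows are RefSeq's on GRCh38.p14. The labels do not call the libraries of a group separate cultures. Some genes of the panel and the lists are not reported here.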

Additional observations from a re-analysis of the deposited data

How the results depend on the processing

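Of 3704 genes called, 3689 were also called by DESeq2 and 1923 stayed called when any 1 library was left out. Those 6 fits called 2269 to 3450 genes, 1096 to 1775 higher and 1173 to 1675 lower, and the lowest counts came without starved library 2. A test against a log2 change of at least 1 called 139 genes, 41 higher and 98 lower. Spike-in scaling called 3227 higher and 189 lower, and the log2 changes of ASNS (0.0766), CDK4 (0.19), EP300 (0.13) and SMG1 (0.017) reversed. For 1122 transcript models, DESeq2 called 4609, a fit of the 2 groups 78, spike-in scaling 322, the log2 change of at least 1 called 31, and the fits without 1 library 351 to 699. For 191 usage calls, limma on shares called 56, models with at least 0.05 of the counts gave 48, and the fits without 1 library 65 to 186. The difference in processed transcript share (refed minus starved, in percentage points, -0.0107 with every library) ranged from -0.0955 without starved library 1 to 0.0515 without starved library 3, and was 0.0448 without refed library 3 and 0.012 without starved library 2. The cause of these differences was not tested. Of 203 named genes called, 186 kept their call in all 6 fits without 1 library, and of 64 list counts of at least 3, 29 moved by over 1.5 times in at least 1 of them. Under spike-in scaling 53 of the 203 lost their call, besides the 4 that reversed. With that scaling the lower count went from 13 to 1 for cholesterol synthesis enzymes and from 14 to 2 for autophagy genes. The higher count of cytosolic heat shock chaperones went from 16 to 19.

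With the replicate number as a block, 5451 genes were called, 2754 higher and 2697 lower, as were 1790 transcript models and 123 for usage. The deviations of same-numbered refed and starved libraries correlated at 0.0957, 0.33 and 0.182 across genes, and each refed library correlated best with its own number. Since 1 of the 3 was not over 0.1 and the labels tie the numbers to no shared culture or day, the libraries were not treated as paired.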

Other observations

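Nuclear transport receptors were higher in 7 of 27 cases and lower in 3, and the lower count was 1 without any of refed libraries 2 and 3 or starved libraries 1, 2 and 3. RAN, the GTPase that gives nuclear transport its direction, measured 721, 647 and 635 CPM in refed and 432, 456 and 524 CPM in starved libraries. Its partner RANBP1 measured 82.0, 83.9 and 79.9 CPM in refed and 49.7, 59.3 and 54.1 CPM in starved libraries. Neither overlapped between groups. XPOT, which exports tRNA and is uncertain, measured 249.2, 244 and 258 CPM in refed and 538, 439 and 375 CPM in starved libraries, and was lower.

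Among 16 factors of nonsense-mediated decay 4 were higher and 1 was lower, with 2 higher without starved library 2. SMG1, the kinase of UPF1, was the lower one (-0.61 ± 0.14, uncertain) and had a log2 change of 0.02 under spike-in scaling. It measured 152, 159 and 158 CPM in refed and 269, 247 and 197 CPM in starved libraries.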
